A study of Oryctolagus cuniculus with 4 samples.

Results

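The SNRPN-NDN imprinted locus is represented here by 5 genes, SNURF, SNRPN, NDN, MKRN3 and UBE3A, of the 9740 genes that could be named on a rabbit array. They were selected on earlier results of the same comparison, so their differences between parthenotes and fertilised embryos are given as a description, without a test. All 5 genes had probes, 24 of the 43603 in all, with 10 for SNURF, 1 for SNRPN, 5 for NDN, 5 for MKRN3 and 3 for UBE3A. The embryos were New Zealand White blastocysts recovered at day 6. Parthenote embryos came from oocytes activated by electrical pulses, cycloheximide and 6-DMAP, and grew in the tracts of recipient does. The in vivo fertilised control embryos were untreated and came from inseminated does. RNA of 4 pools of embryos per group was hybridised to 4 arrays, each with a parthenote pool in Cy3 and a fertilised pool in Cy5. This labelling was the same on every array, so dye and group cannot be told apart. A ratio between pools also cannot tell fewer cells with a transcript from less transcript per cell.

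In human and mouse, imprinted genes are transcribed mainly from the copy of one parent. At this locus an imprinting centre at the start of SNURF-SNRPN carries DNA methylation on the maternal copy, and SNURF-SNRPN, NDN and MKRN3 are read from the paternal copy. A parthenote has no paternal copy. UBE3A is read from the maternal copy in neurons and from both copies in most other tissues. SNURF and SNRPN share a transcript that encodes a small protein upstream and SmN, an Sm protein of the spliceosome, downstream. NDN encodes necdin, a MAGE family protein, MKRN3 a makorin with zinc fingers, and UBE3A a ubiquitin ligase. In the rabbit reference mOryCun1.1 the order of the genes is CHRNA7, MKRN3, MAGEL2, NDN, SNURF, SNRPN, UBE3A and ATP10A.

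All probes have 60 bases, and the sequences below are those of the array files. They are shown because overlapping probes are close to a single measurement, and because the identity of a probe to another gene bears on a dim signal. The array files give positions without naming a genome build. The first 3 lines are stretches of 30 bases. A_04_P013564 is the brightest SNURF probe (chr17:81378784-81378843, minus strand). The second stretch is held both by A_04_P013561 (chr11:85219455-85219514) and by A_04_P013562 (chr17:81374257-81378782), which the files thus place on different chromosomes. The third is the start of a run of 53 bases that 6 SNURF probes have in common, A_04_P000896 to A_04_P000900 and A_04_P027721, all placed within 0.1 kb of A_04_P013561. The probe for SNRPN (chr17:81372054-81373060) spans 947 more bases of the genome than it has itself, and A_04_P013562 and A_04_P013563 each span 4466 more. Each of these 3 probes thus skips bases that the genome holds between the ends of the probe.
SNURF A_04_P013564, first 30 bases: cttagccgagacaccaagaggtggttaaag
SNURF A_04_P013561 and A_04_P013562, shared run: tgaagcttctgcccagcttgcattgtttct
SNURF A_04_P000896, start of the common run: aggtcttaagggtcctgaaattttactttg
SNRPN A_04_P051612: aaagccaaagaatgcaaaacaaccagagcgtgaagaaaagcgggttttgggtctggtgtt

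The 5 NDN probes (chr17:81737217-81737280) and the 5 MKRN3 probes (chr17:81808026-81808089) are each shifted against each other by 1 base, and share a run of 56 bases. Capitals mark that run in the NDN probe. The MKRN3 probe is shown with the closest probe of another gene, one for its relative MKRN1, with the bases that differ between them in capitals. They match at 48 of 60 bases, and A_04_P061651 matched its MKRN1 counterpart at 49. The probes of SNURF, SNRPN and UBE3A matched no probe of another gene at more than 33 of 60 bases, and those of NDN at no more than 37, in ungapped comparisons. The UBE3A probes lie at chr17:80875994-80876283 without overlap.
NDN A_04_P057068: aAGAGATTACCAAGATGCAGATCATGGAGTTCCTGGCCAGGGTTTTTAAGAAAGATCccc
MKRN3 A_04_P061650: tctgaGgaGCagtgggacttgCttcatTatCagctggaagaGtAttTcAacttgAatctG
MKRN1 A_04_P043100: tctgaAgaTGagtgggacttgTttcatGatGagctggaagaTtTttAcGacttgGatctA
UBE3A A_04_P073022: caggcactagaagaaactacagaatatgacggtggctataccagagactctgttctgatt

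SNURF and SNRPN gave the strongest contrast of the members. All 11 probes were well above background in fertilised embryos on every array, 44 of 44 values, against 23 of 44 values in parthenotes. On the brightest probe, A_04_P013564, the processed intensity of the fertilised channel was 10481, 11360, 11994 and 10918 units on arrays 1 to 4. In the parthenote channel it was 205, 222, 331 and 241. The channels did not overlap, and array 3 had the highest value in both. The log2 ratios of parthenote over fertilised were -5.68, -5.67, -5.18 and -5.50, with a mean of -5.51 ± 0.24 (SD, n = 4 arrays). The parthenote intensity was thus 2.20% of the fertilised one. The software marks a spot as well above background when its signal exceeds that of its surroundings by a set margin. Both channels carried this mark on all 4 arrays here, so the remaining parthenote signal was a measured one.

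**Figure D1:**
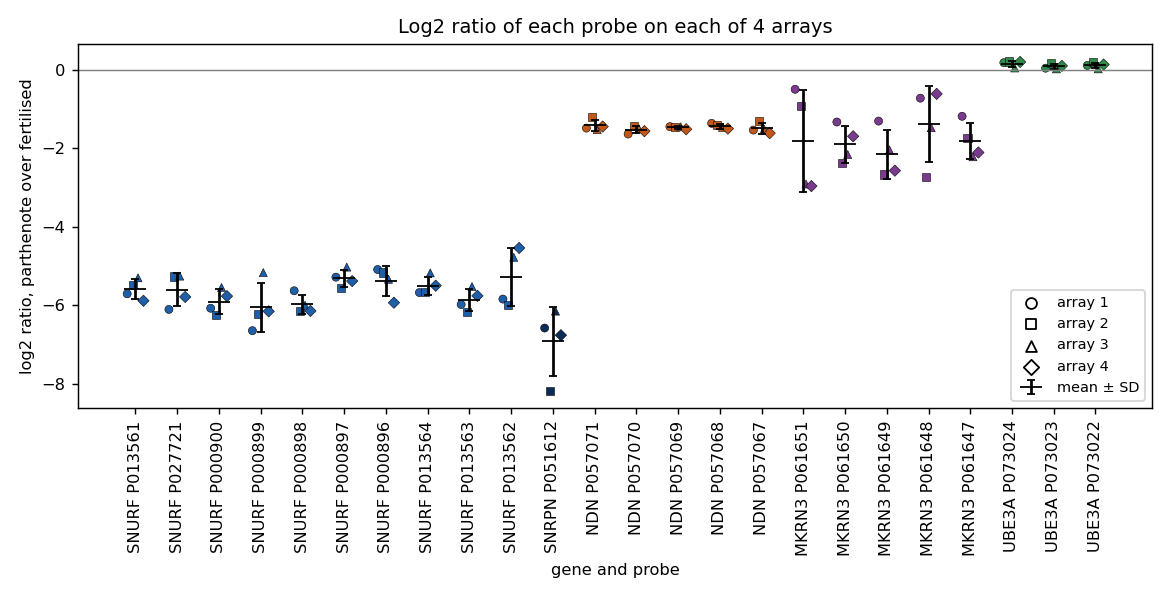
Log2 ratio of parthenote over fertilised embryos (vertical axis) for each of the 24 probes (horizontal axis), with 1 marker per array, the mean as a black bar and the SD over 4 arrays as whiskers. The 11 SNURF and SNRPN probes lie between -8.20 and -4.54, NDN and MKRN3 lie between -2.96 and -0.50, and the UBE3A probes lie just above 0.

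The probe for SNRPN itself, A_04_P051612, lies in the part that encodes the Sm protein. Its fertilised intensity was 2107, 2190, 2313 and 2094, and its parthenote intensity was 22.0, 7.46, 32.5 and 19.2. The parthenote channel carried the mark on 3 arrays and not on array 2. The log2 ratios were -6.58, -8.20, -6.15 and -6.77, with a mean of -6.93 ± 0.89 (SD, n = 4 arrays), and array 2, where the parthenote signal was dimmest, gave the lowest value.

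The other chromosome 17 probes overlap A_04_P013564 in a chain. A_04_P013563 gave -5.86 ± 0.28 (SD, n = 4 arrays) and carried the mark in both channels on all arrays. A_04_P013562 gave -5.85, -6.00, -4.78 and -4.54, with a mean of -5.29 ± 0.74 (SD, n = 4 arrays). Its parthenote intensity was 19.2 and 17.3 on arrays 1 and 2, not above background on either, and 41.4 and 45.8 on arrays 3 and 4. The fertilised intensity of this probe changed little, between 1068 and 1136, so the parthenote channel carried the spread of the ratio.

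The 7 probes placed on chromosome 11 had deposited mean log2 ratios between -6.05 and -5.32. A_04_P013561, well above background in parthenotes on all 4 arrays, had 1135, 1218, 1229 and 1159 units in fertilised embryos against 21.7, 27.2, 31.1 and 19.6 in parthenotes. Its log2 ratio was -5.60 ± 0.26 (SD, n = 4 arrays). The mean ratios of the 6 overlapping probes ran from -6.05 for A_04_P000899 to -5.32 for A_04_P000897. Within this set the SD between probes of an array was 0.42 (median over arrays) and the SD between arrays of a probe was 0.35 (median over probes), so the order of these probes is not measured. Only 6 of their 24 parthenote values were well above background. Other probes within 1000 kb on chromosome 11 had mean log2 ratios between -0.57 and 0.11.

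For 2 of these 6 probes, A_04_P000898 and A_04_P000900, the parthenote channel was not well above background on any array, so the size of their decrease is not measured. Bounds were sought with normexp background correction, loess and Aquantile normalisation, and the local background repaired for the few spots far below it. A_04_P000898 then came out 11-fold and A_04_P000900 11.1-fold lower in parthenotes. Without the repair these values were 6.70-fold and 6.90-fold. The bounds compare the mean of the fertilised channel with the dimmest parthenote signal on the array that still carried the mark, or with the dim probe itself if brighter. With the repair, the dim probe itself was the brighter for both. Their 11-fold and 11.1-fold are thus ratios of the normalised channels and not limits set by a marked signal. All bounds are open to dye bias.

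Over the 11 SNURF and SNRPN probes, the log2 ratio was below 0 in 44 of 44 values, with a median of the probe means of -5.61 in the deposited values. This size depended on the processing, as the median was -2.76 after normexp and loess and -3.12 after normexp and median centring. In the deposited values the medians of the arrays were -5.85, -6.00, -5.30 and -5.79. The coefficient of variation between arrays was 3.83% in fertilised embryos and 22.9% in parthenotes (medians over the probes). None of the 24 probes was saturated on any array.

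**Figure D2:**
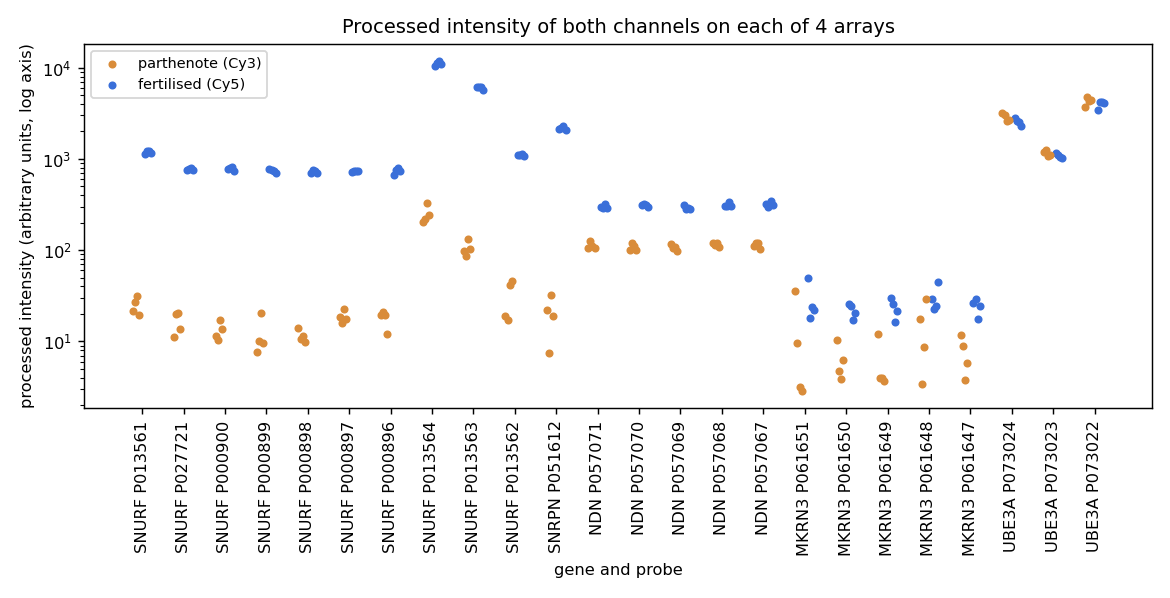
Processed intensity in arbitrary units on a log axis (vertical) for each of the 24 probes (horizontal), 4 points per channel, parthenote in orange and fertilised in blue. The channels of the SNURF, SNRPN and NDN probes are apart on all 4 arrays and those of the UBE3A probes lie side by side, while intensities of different probes are not comparable with each other.

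NDN was measured above background in either channel, on each array and by each of its probes, and the parthenote signal was lower but clearly present. On the brightest, A_04_P057068, the fertilised intensity was 306, 304, 334 and 308 units. The parthenote intensity was 119, 114, 121 and 109. The channels did not overlap, and the log2 ratios were -1.36, -1.42, -1.47 and -1.5, with a mean of -1.44 ± 0.06 (SD, n = 4 arrays). Parthenotes thus held 36.9% of the fertilised signal at this probe. The means of all 5 probes lay between -1.53 and -1.42, and the SD between these probe means, 0.0456, was below the median SD between arrays, 0.0909. As these probes share 56 bases, this spread describes repeated spots of nearly the same sequence.

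MKRN3 was dim in both groups. All 5 probes were well above background in fertilised embryos on all 4 arrays, but with only 16.5 to 49.9 units, and in parthenotes only 2 of 20 values were. On A_04_P061650 the fertilised intensity was 26.0, 24.5, 17.2 and 20.4, and the parthenote intensity was 10.3, 4.68, 3.85 and 6.30. Before any processing, the mean intensities of its spots were 111, 106, 94.1 and 103 in the fertilised channel over local backgrounds between 52.5 and 56.0, and 60.6, 57.3, 55.1 and 59.2 in the parthenote channel over local backgrounds between 34.0 and 42.0.

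The deposited log2 ratios of MKRN3 were below 0 in 20 of 20 values, with probe means between -2.15 and -1.38. The brightest probe, A_04_P061648, gave -0.72, -2.72, -1.48 and -0.61, with a mean of -1.38 ± 0.97 (SD, n = 4 arrays). The size of the decrease depended on the processing, as normexp and loess left -0.28 to -0.17. Normexp and median centring left -0.20 to -0.009, beside a median of -0.18 over all named genes, which spans all intensities. MAGEH1 and ELAVL4, with mean intensities of 24.8 to 27.3 units in the 2 groups, had 0.10 and 0.07 under this centring. For A_04_P061647, A_04_P061649 and A_04_P061650, not well above background in parthenotes on any array, the bounds were at least 1.23-fold, 1.25-fold and 1.16-fold lower. The brightest MKRN1 probe, A_04_P043097, gave a ratio of 0.08 ± 0.10 on the log2 scale (SD, n = 4 arrays, adjusted p = 0.318 in limma). Whether MKRN1 transcripts add to the MKRN3 signal was not tested.

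UBE3A was bright in both groups, and its log2 ratios lay between 0.03 and 0.21. On A_04_P073022 the parthenote intensity was 3723, 4823, 4281 and 4463 units and the fertilised intensity was 3442, 4224, 4203 and 4061, so the groups overlapped. The log2 ratios were 0.11, 0.19, 0.03 and 0.14, with a mean of 0.12 ± 0.07 (SD, n = 4 arrays). The other probes had means of 0.16 and 0.09, and 12 of 12 values were above 0. This sign depends on the scaling. When the arrays were centred on their median after normexp, in place of loess, the 3 means were between -0.55 and -0.45. The median over all named genes stood at -0.18, but it spans genes of all intensities. NIPA2, CLNS1A and GEMIN6, with mean parthenote intensities of 4970, 4970 and 4120 units, had -0.69, -0.61 and -0.57 under this centring. Their deposited values were -0.002, 0.06 and 0.10.

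**Figure D3:**
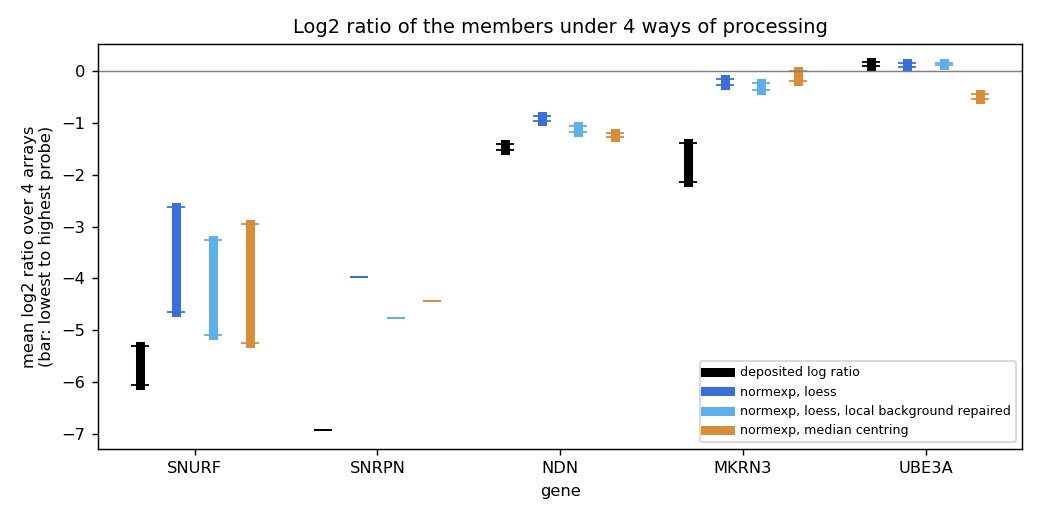
Mean log2 ratio of parthenote over fertilised embryos over 4 arrays (vertical axis) for each gene (horizontal axis) under 4 ways of processing, each bar running from the lowest to the highest probe of the gene. SNURF, SNRPN, NDN and MKRN3 stay below 0 under all 4, MKRN3 comes close to 0 after normexp, and UBE3A changes sign under median centring. Under median centring the median over all named genes was -0.18. This median spans all intensities and is not matched to that of MKRN3 or UBE3A.

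On the scale of log2 ratios, the members lay, from the lowest up, in the order SNRPN and SNURF, then MKRN3 and NDN, then UBE3A. The MKRN3 and NDN probe means differed by less than the SD between arrays of most MKRN3 probes, so their order is not measured.

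Along chromosome 17 of the array files, the decreases of the members lay over 435 kb from the SNRPN probe to the MKRN3 probes. NDN lay 358 kb and MKRN3 429 kb to one side of A_04_P013564, and UBE3A 503 kb to the other. Within 1000 kb the array held 14 other probes, of which 4 were never well above background, 3 fell and 0 rose in limma at an adjusted p under 0.05 (20.6% of all 43595 probes tested passed this threshold in either direction). At an unadjusted p under 0.05 in limma, 6 of these 14 were lower and 2 higher. The 3 that fell belong to a set of 5 probes without a gene name, A_04_P037897 to A_04_P037901, at 856 kb, beyond MKRN3. The 5 had mean log2 ratios between -1.56 and -1.02 and carried the mark in both channels on every array. They were singled out after their values were seen. All 5 are placed at 855.55 kb, so they may not be separate measurements, and their overlap was not examined. The probe for CHRNA7, a nicotinic receptor subunit at 656 kb, had -1.15 ± 0.72 (SD, n = 4 arrays, adjusted p = 0.103 in limma), and was well above background on 2 arrays in fertilised embryos and on 0 in parthenotes.

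**Figure D4:**
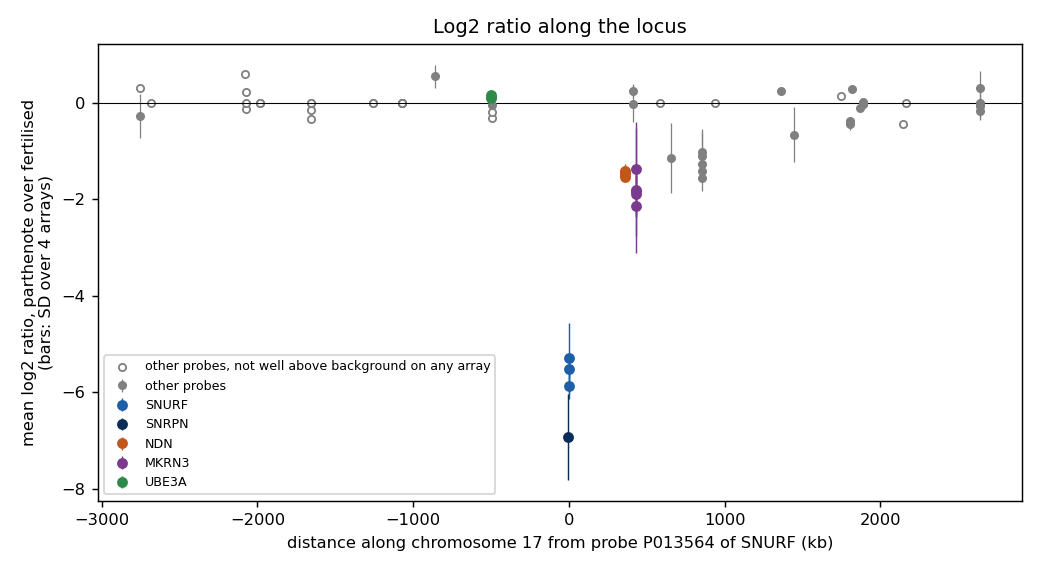
Mean log2 ratio of parthenote over fertilised embryos with the SD over 4 arrays (vertical axis) against the distance in kb along chromosome 17 from the SNURF probe A_04_P013564 (horizontal axis). Ratios below -2 occur at SNURF, SNRPN and 1 MKRN3 probe, and open circles are probes that no array measured well above background.

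Of the genes that flank the locus in human and mouse, 4 passed the threshold, 3 of them upward. The list holds 20 such genes, of which 14 had a named probe, and by the brightest probe 3 rose, 1 fell and 10 did not pass the threshold, with a median log2 ratio of -0.04. Over all 9740 named genes 11.8% rose and 12.3% fell, with a median of 0.0. OCA2, which encodes a melanosome transporter, rose by 1.76 ± 0.20 (SD, n = 4 arrays), with 1.67, 1.92, 1.52 and 1.94 on arrays 1 to 4 (adjusted p = 0.00772 in limma). FAN1, a nuclease of DNA crosslink repair, rose by 0.29 ± 0.06 and OTUD7A, a deubiquitinase, by 0.24 ± 0.05 (SD, n = 4 arrays, adjusted p = 0.0153 and 0.0172 in limma). HERC2, a ubiquitin ligase that binds UBE3A, fell by 0.10 ± 0.03 on the log2 scale (SD, n = 4 arrays, adjusted p = 0.0339 in limma). The HERC2 call was lost after normexp and loess (adjusted p = 0.223 in limma), with dim probes filtered out (0.16), with no replicate block (0.426) and without any single array (0.0659 to 0.132). The OTUD7A call was lost after normexp and loess (adjusted p = 0.0975 in limma), with no replicate block (0.165) and without replicate 1, 3 or 4 (0.0602 to 0.0878). FAN1 was lower, with -0.22, under median centring. Its call was lost with no replicate block (adjusted p = 0.0505 in limma) and without replicate 2, 3 or 4 (0.0652 to 0.0883). Without replicate 4, 0 of the 14 genes passed the threshold in limma (5 at an unadjusted p under 0.05), and OCA2 had an adjusted p of 0.0505 in limma. MAGEL2, NPAP1, ATP10A, GABRG3, KLF13 and MTMR10 were not analysed here.

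SmN replaces the Sm protein encoded by SNRPB in some tissues. Of 24 genes for Sm and other spliceosomal snRNP proteins and the factors that assemble them, 17 had a named probe, 0 rose and 2 fell by limma, with a median log2 ratio of -0.10, beside the 11.8% of all named genes that rose and the 12.3% that fell. At an unadjusted p under 0.05, 1 was higher and 5 were lower. The 2 that fell were SMN1, with -0.29 ± 0.07, and GEMIN2, with -0.37 ± 0.09 (SD, n = 4 arrays, adjusted p = 0.0206 and 0.0201 in limma). In the same assembly machinery GEMIN5, GEMIN6 and STRAP had -0.12, 0.10 and 0.11 and did not pass. Of the Sm proteins themselves, SNRPD1, SNRPD2, SNRPD3, SNRPF and SNRPG had log2 ratios between -0.36 and 0.09 and did not pass the threshold. Leaving out replicate 2, 3 or 4 left 0 of the 17 past it in limma (6, 4 and 2 at an unadjusted p under 0.05). All 17 were well above background on every array, whereas the share over all named genes includes genes without a usable signal. In a limma fit on the 26724 probes well above background, 11276 passed the threshold in either direction. In that fit 3 of the 17 fell and 0 rose. SNRPB was not analysed here.

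Of 13 relatives of the members, 7 had a named probe, and the median log2 ratio was -0.0065. Of these 7 genes 1 rose and 0 fell, beside the 11.8% and 12.3% of all named genes. The gene was UBE3B, a ubiquitin ligase, with 0.27 ± 0.11 (SD, n = 4 arrays, adjusted p = 0.0441 in limma), and it turned to -0.08 under median centring. Without replicate 2, 3 or 4 it did not pass. The necdin relatives MAGED1 and MAGED2 had -0.07 ± 0.13 and -0.30 ± 0.32 (SD, n = 4 arrays), the makorin MKRN2 had 0.02 ± 0.07, and the ligase UBE3C had -0.01 ± 0.07 (SD, n = 4 arrays), none past the threshold.

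**Figure D5:**
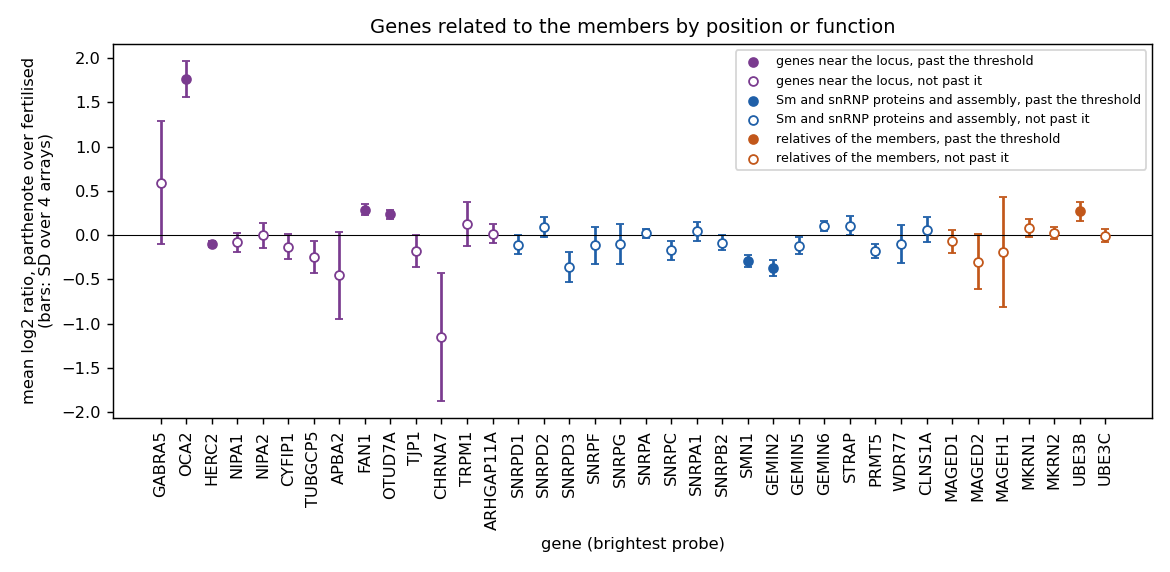
Mean log2 ratio of parthenote over fertilised embryos with the SD over 4 arrays (vertical axis) for each gene by brightest probe (horizontal axis). Shown are genes that flank the locus in human and mouse, snRNP genes and relatives of the members. Filled points passed an adjusted p of 0.05 in limma, and all of the means lie between -1.15 and 1.76.

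The named genes with the ratios closest to NDN on the 4 arrays, among 15666 probes well above background in fertilised embryos on all arrays, were JAK2, ECHDC2 and TGFBR1, all marked in both channels. Their root mean square differences to NDN were 0.127, 0.15 and 0.167 on the log2 scale. For SNURF-SNRPN the closest were P2RY13, SLN and ZAN, and for MKRN3 they were DQX1, TMEM202 and SEMA5A. None of these 6 genes was well above background in parthenotes on any array, so their likeness and order are not measured.

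The tissue label was compared with marker genes. POU5F1, a marker of the epiblast, and KRT8, GATA3 and TFAP2C, markers of trophectoderm, were well above background in both groups on all arrays. POU5F1 rose by 0.21 ± 0.03 and KRT8 by 0.58 ± 0.22 on the log2 scale (SD, n = 4 arrays, adjusted p = 0.0118 and 0.0408 in limma). Under median centring they turned to -0.52 and -0.21, beside a median of -0.18 over all named genes. That median spans all intensities, and MKRN1, near POU5F1 in intensity, had -0.64, while SNRPF, near KRT8, had -0.90. Neither passed the threshold in limma without replicate 2, 3 or 4. GATA3 and TFAP2C had 0.12 and -0.31, and GATA4, a marker of primitive endoderm, had -0.34, none past the threshold. CDX2, NANOG and SOX2 were not analysed here.

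Markers of the maternal tract also moved with the group. For 2 of 4 markers of secretory cells of oviduct and uterus that had a probe, OVGP1 and SCGB1A1, the summed processed intensity was 673 to 2231 units in fertilised pools and 5802 to 25583 in parthenote pools, and both rose by limma. Of 6 markers of motile ciliated cells, 5 had a probe and 3 rose, RSPH1, DNAI1 and CFAP144. Their mean fertilised intensities were 4.82, 9.49 and 5.69 units, against 32.2, 44.3 and 186 in parthenotes. RSPH1 and CFAP144 were not well above background in fertilised pools on any array. The sums of all 5 were 88.8 to 166 against 249 to 656. SPAG6, with 93.5 units in fertilised and 201 in parthenote pools, carried most of the fertilised sum. Its brightest probe had 1.08 ± 0.56 on the log2 scale and did not pass (SD, n = 4 arrays, adjusted p = 0.0717 in limma). This was the lowest mean of the 5 SPAG6 probes, and the highest was 5.95. FOXJ1 was not well above background in either group. Of 4 leukocyte markers, 2 rose. CD48 had a mean intensity of 25.6 units in fertilised and 92.0 in parthenote pools, higher by 1.85 ± 0.30 on the log2 scale (SD, n = 4 arrays, adjusted p = 0.0116 in limma). LCP1 had 40.3 and 64.3 units, higher by 0.67 ± 0.08 on the log2 scale (SD, n = 4 arrays, adjusted p = 0.00811 in limma). The sums of the list, 5237 to 5747 against 4636 to 6469, were carried by CD53, with 5340 and 5470 units, which did not pass the threshold, and PTPRC was not well above background in either group. The part of all these markers in the ratios of the members was not tested. ELAVL4, the only neuronal marker with a probe, had 23.6 to 27.9 units in fertilised and 22.9 to 33.0 in parthenote pools.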

How the data were processed

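Embryo pools were compared on 4 Agilent 2-colour 60-mer arrays of rabbit transcripts, labelled from 150 ng of total RNA. Spots were extracted by the authors in Feature Extraction 10.10.1.1 (version per the labels). The deposited intensity values are the mean and local background of each spot and a processed intensity with background subtracted and dyes normalised. The deposited log10 ratio is processed Cy5 over Cy3, and is 0 where neither channel has a usable signal.

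Here log10 ratios were turned to log2 of parthenote over fertilised. Control and outlier spots were left out, spots of a probe were averaged, and 43595 probes with values on at least 3 arrays were tested against 0 with limma 3.58.1 in R 4.3.3 (lmFit, eBayes, Benjamini-Hochberg). The test was checked on simulated data. Genes were named through mOryCun1.1 accessions or the array's own names, and list genes taken by the probe brightest over both channels. The closest named genes had the smallest root mean square difference of the 4 ratios. Members, lists and naming rules were chosen with earlier results of these data known. On each array, 25805 to 26339 spots stood well above background in parthenotes and 27508 to 27835 in fertilised embryos. The number of arrays limits the precision. Pools of a group count as replicates as labelled. Alternatives were normexp (offset 50) with loess or median centring, processed-signal ratios, outlier spots kept, probes of a gene averaged, each array left out, the methods' t-test, a filter on dim probes and 8 unpaired channels. A repair of the local background of 20 spot values was added after seeing the data. One gene was left out of the lists and is not reported here.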

Additional observations from a re-analysis of the deposited data

Results flagged for a closer look

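Of the 24 probes of the members, 1 had an array far from the other 3. NDN A_04_P057069 had a log2 ratio of -1.51 on array 4, against -1.45 on each of the others, and the gap made up 0.893 of its whole range, above Dixon's 95% critical value. Chance alone exceeds that value in about 1 of 20 groups.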

How the results depend on the processing

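The ratio of processed signals and outlier spots kept left the log2 ratios of the members unchanged. The deposited ratio is itself one of processed signals, so the first of these is not a separate check. Leaving out 1 array cannot move the mean of a probe by more than 1 SD between arrays, so it is no test of NDN, MKRN3 or UBE3A. The SNURF-SNRPN median lay between -5.72 and -5.55 without any single array, beside -5.61 with all. Averaging the probes of a gene kept the log2 ratios of the members within 1 SD between arrays. With normexp and loess the values were -2.76 for SNURF-SNRPN (median over the probes), -0.88 for NDN and -0.18 for MKRN3 (brightest probe). With the local background repaired as well, a step chosen after seeing the data, they were -3.45, -1.09 and -0.29, and with normexp and median centring -3.12, -1.20 and -0.14. UBE3A turned to -0.55 under median centring, which placed the named genes at a median of -0.18. NIPA2, CLNS1A and GEMIN6, of similar intensity to UBE3A, had -0.69, -0.61 and -0.57.

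Of all probes tested, 8996 passed the threshold in limma. This became 31603 with median centring, 21399 with the ratio of processed signals (65.0% higher, against 46.2%), 4435 with the methods' t-test, 16358 with no replicate block (8 unpaired channels, 68.0% higher), and 1239 to 5736 when 1 array was left out, lowest without replicate 4. The genes that flank the locus in human and mouse went from 4 to 2 with normexp and loess, 10 with median centring, 2 with no replicate block, and 0 to 2 without 1 array. The snRNP genes went from 2 to 5 with the repaired background, 17 (all lower) with median centring, 4 with the ratio of processed signals, and 0 to 2 without 1 array. The relatives went from 1 to 0 with normexp and loess, the t-test or no replicate block, to 5 (all lower) with median centring, and 0 to 1 without 1 array. The cause of these changes was not tested. A dim parthenote channel limits the ratios of SNURF, SNRPN and MKRN3. The folds of the 2 SNURF probes without a marked parthenote value fell to 6.70-fold and 6.90-fold without the repair.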
